A study of Mus musculus with 9 samples.

Results

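The stefin A genes Stfa1, Stfa2, Stfa3, Stfa2l1 and BC100530, which lie in a cluster on mouse chromosome 16, and the related stefin B gene Cstb on chromosome 10 were followed in neutrophils sorted from carcinogen-treated mouse skin. Each of these 6 genes had 1 probe among the 55681 probes of the array that are not controls. The group was chosen by a measured value, namely that Stfa3 differed between neutrophils of tumor skin and of papilloma skin, so that this comparison, and those of each lesion with its own skin, are given as a description without a test. Cstb was included for comparison.

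Stefins, or type 1 cystatins, are small proteins without a signal peptide that sit in the cytosol and bind the active site of papain-like cysteine proteases such as cathepsins B, L, S and H. Humans have a single stefin A gene, whereas in the mouse it has been duplicated into a family of near-identical neighbors. Stefin A is known from the cornified layer of skin and from cells of the myeloid line, and stefin B is found in most cell types.

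FVB/N mice received DMBA, a carcinogen, at 6 and 13 weeks of age and PMA, a tumor promoter, from week 1 to week 18 to 20, and neutrophils were sorted as Gr-1bright cells. All 4 groups came from such treated mice, so that there was no untreated skin: skin next to papillomas (papilloma skin, 2 arrays), skin next to carcinomas (tumor skin, 2), papillomas (papilloma, 3) and carcinomas (tumor, 2). Because the neutrophils of every array came from pooled skin or lesions of several mice, the arrays were the replicates and the spread between mice was not measured. Lesions had been digested with dispase and DNase besides collagenase and skin with collagenase alone, so that tissue and digestion cannot be told apart.

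Values are log2 values of the deposited table unless the scanner files are named. The arrays sat on 3 slides, and slide 1 held replicate 1 of every group. On papilloma skin 1, tumor skin 1 and tumor 1 the spike-in controls gave slopes of 0.68 to 0.89 of signal on concentration, both as log values, and 90.7% to 95.0% of probes were well above background, against 1.04 to 1.06 and 43.5% to 63.5% on the other 6 arrays. In rank, the table columns papilloma skin 1 and tumor 1 were closer to the scanner file of tumor 2 (Spearman's rho of 0.923 and 0.946 across probes) than to their own files (0.587 and 0.825), and papilloma 2 and papilloma 3 were each closest to the other's file. Results are therefore also given without the columns papilloma skin 1 and tumor 1 and from the scanner files. The 10 core neutrophil markers were well above background on all 9 arrays. Since fewer cells of a type and less RNA per cell cannot be told apart in such preparations, a level below is that of the sorted preparation.

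The member probes are shown because the genes are so alike that the probe decides what is measured. Each is 60 bases long, and capitals mark a run of at least 12 bases that is also found in the probe of another gene of the cluster. Of Stfa1 and Stfa2 the first 30 bases are given.

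Stfa3 (mm9 chr16:36450693-36450752, minus strand): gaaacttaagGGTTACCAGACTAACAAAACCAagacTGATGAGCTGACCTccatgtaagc
BC100530 (mm9 chr16:36359525-36359584, minus strand): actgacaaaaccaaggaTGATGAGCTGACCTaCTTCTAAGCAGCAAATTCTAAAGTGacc
Stfa2l1 (mm9 chr16:36160118-36161876, plus strand): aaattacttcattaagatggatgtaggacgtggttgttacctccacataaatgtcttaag
Stfa1 (mm9 chr16:36285398-36285457, plus strand): tgatctgattcctctcagtggaaagagatt
Stfa2 (mm9 chr16:36404032-36404089, minus strand): atcccctaacccccattgtaaagagatgcg
Cstb (mm9 chr10:77890058-77890117, plus strand): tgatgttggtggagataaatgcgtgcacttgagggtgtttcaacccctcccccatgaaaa

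The 5 stefin A probes lay within 290.6 kb. The Stfa2l1 probe spread over 1759 bases of genome and so crossed an intron. Stfa3's probe shared 14 bases with that of BC100530 and 22 with that of Gm5483, and BC100530's probe shared 25 bases with that of 2010005H15Rik. The array's own annotation lists the Stfa2 transcript beside that of Stfa2l1 for the Stfa2l1 probe, and BC100530 is named Cstdc5 in the RefSeq table. Signal from a neighboring copy on any of these probes was not tested, and the members' levels are read as those of near-identical copies that may share it. All 6 probes were well above background and none was saturated on any of the 9 arrays.

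Of the 6 members Stfa3 gave the widest contrast between the skin groups, which is how the genes came to be selected. It read 12.40 and 12.63 in papilloma skin, 14.82 and 14.59 in tumor skin, 13.28, 13.58 and 13.28 in papilloma, and 14.43 and 14.31 in tumor. The order was papilloma skin, papilloma, tumor, tumor skin from low to high, and no array of a group reached into the next. Tumor skin was 2.19 above papilloma skin on the log2 scale, a 4.56-fold difference. Arrays that do not overlap with the first group higher were found for 24.2% of all probes in this comparison. In the quantile normalized scanner files Stfa3 gave 11.58 and 12.40 in papilloma skin, 14.80 and 14.40 in tumor skin, 13.17, 13.02 and 13.48 in papilloma, and 13.83 and 14.13 in tumor. The groups stood in the same order there, again without overlap.

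**Figure D1:**
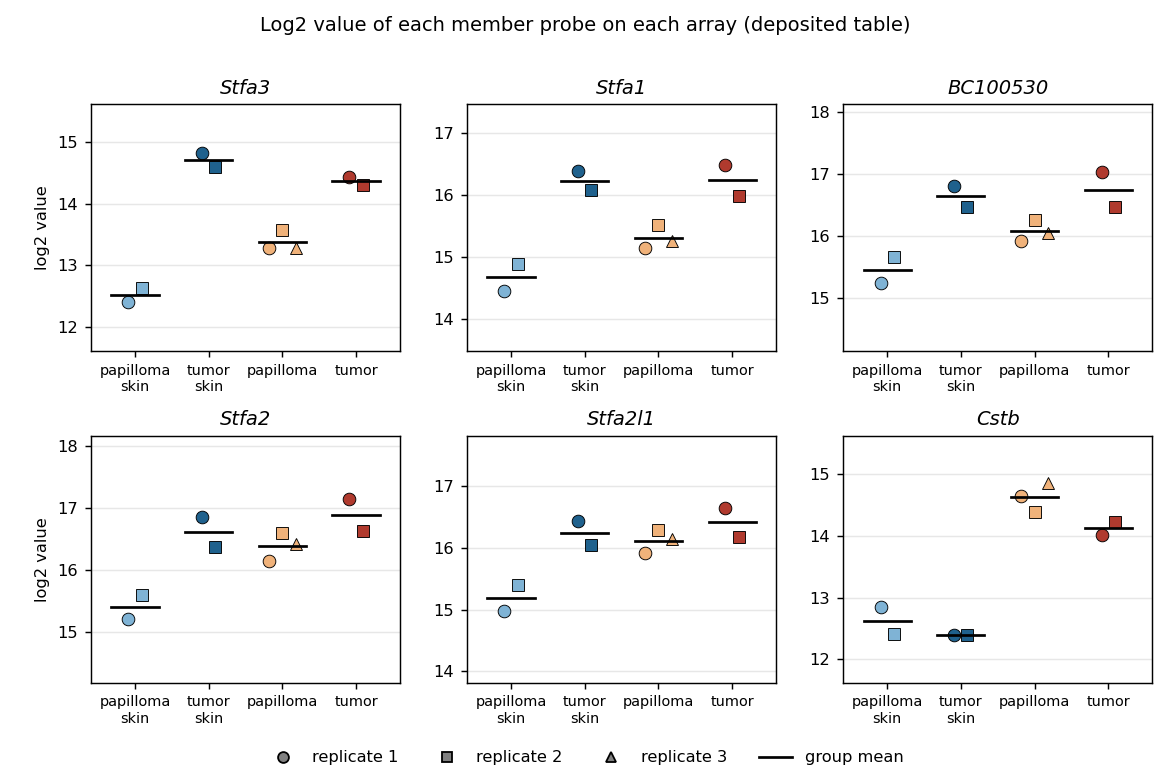
Log2 value of each member probe on each array in the deposited table, by group, with replicates as symbols and group means as black lines; every panel spans 4 log2 units around its own midpoint. The stefin A genes are lowest on the 2 papilloma skin arrays, whereas Cstb is low on all 4 skin arrays and higher on the 5 lesion arrays.

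Stfa1 followed the same course with a smaller range. Its values were 14.45 and 14.89 in papilloma skin, 16.39 and 16.08 in tumor skin, 15.14, 15.52 and 15.26 in papilloma, and 16.49 and 15.99 in tumor. Papilloma skin lay below papilloma and papilloma below the other groups, while tumor skin and tumor overlapped. BC100530 read 15.23 and 15.65 in papilloma skin, 16.81 and 16.47 in tumor skin, 15.92, 16.26 and 16.04 in papilloma, and 17.03 and 16.47 in tumor. It had the same order as Stfa1, and tumor skin and tumor again overlapped.

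Stfa2 and Stfa2l1, whose transcripts the array's annotation lists together, separated papilloma skin from everything else. Stfa2 read 15.20 and 15.59 in papilloma skin, 16.86 and 16.37 in tumor skin, 16.14, 16.59 and 16.42 in papilloma, and 17.14 and 16.63 in tumor. Stfa2l1 read 14.98 and 15.40 in papilloma skin, 16.43 and 16.05 in tumor skin, 15.91, 16.29 and 16.14 in papilloma, and 16.65 and 16.18 in tumor. For Stfa2 the tumor skin arrays overlapped those of papilloma and of tumor, and for Stfa2l1 all 3 groups above papilloma skin overlapped one another.

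Seen by comparison, all 5 stefin A probes were higher on both tumor skin arrays than on both papilloma skin arrays, by 1.05 for Stfa2l1, 1.20 for BC100530, 1.22 for Stfa2, 1.57 for Stfa1 and 2.19 for Stfa3. The same 5 did not overlap in the scanner files, where 8.24% of probes had tumor skin arrays above papilloma skin arrays. Within slide 1, which holds 1 array of each group, the differences were 1.45 to 2.42 in the table and 2.02 to 3.22 in the scanner files. Without the columns papilloma skin 1 and tumor 1 the table gave 0.84 for Stfa2l1 to 2.07 for Stfa3. Since the group was chosen by this comparison, nothing is read from these counts.

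Papilloma exceeded papilloma skin for all 5 as well, by 0.63 for BC100530 to 0.99 for Stfa2, with no overlap of arrays, which held for 19.8% of all probes. This comparison shares its skin arrays with the one above. Between tumor and tumor skin the picture differed, with Stfa1 at 0.01, BC100530 at 0.11, Stfa2l1 at 0.17 and Stfa2 at 0.27, all with overlapping arrays, while 25.7% of all probes had every tumor array above every tumor skin array. In the table Stfa3 alone among the members was lower on both tumor arrays than on both tumor skin arrays, by 0.33 on the log2 scale (1.26-fold), where 26.4% of all probes were likewise lower without overlap. The scanner files gave it a log2 difference of -0.62, also without overlap, and Stfa1 was lower on both tumor arrays there as well (-0.35), where 13.4% of probes were. The stage difference of the lesion effect, tumor minus tumor skin less papilloma minus papilloma skin, was -0.52 to -1.19 for the stefin A probes and -0.27 for Cstb and was not tested, since it uses the skin arrays.

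**Figure D2:**
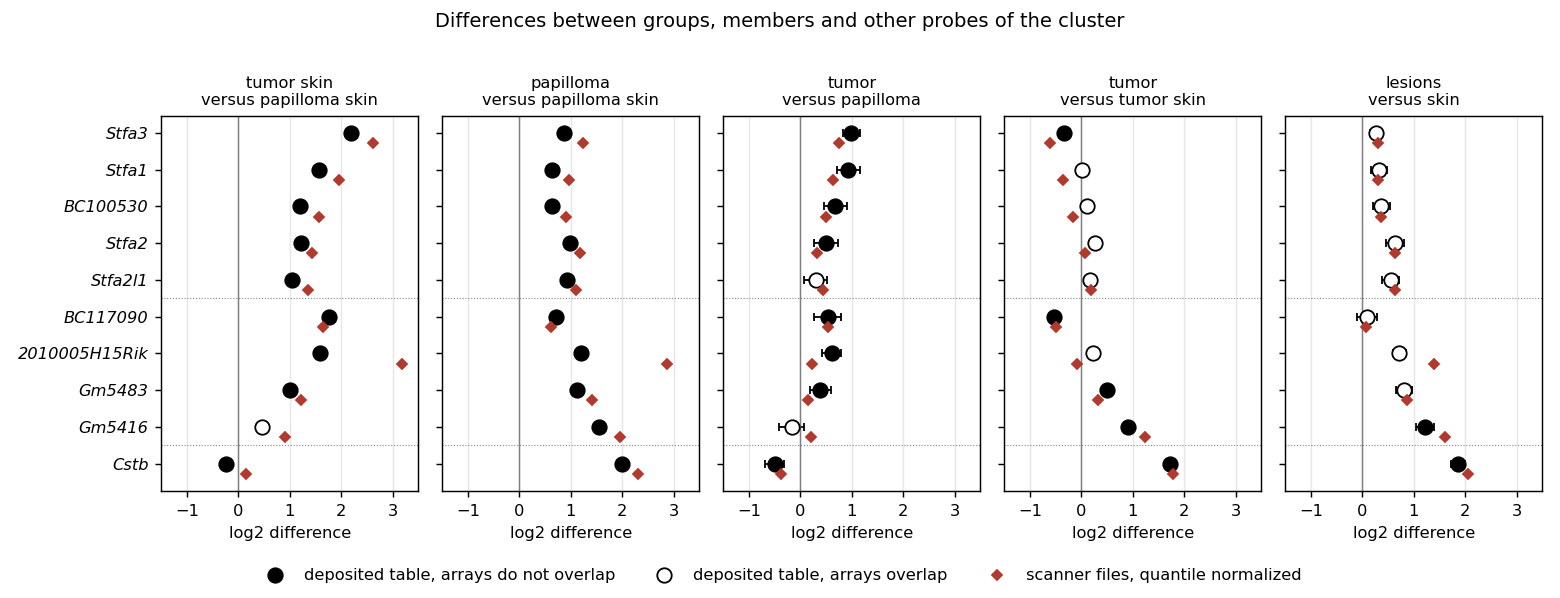
Log2 difference between groups for the 5 stefin A members, 4 other probes of the cluster and Cstb, with 1 panel per comparison; black bars are standard errors of the limma fit and are drawn only for the tested comparisons, tumor versus papilloma and lesions versus skin. Stefin A members differ between the skin groups by 1.05 to 2.19 and Cstb by -0.23, and Cstb exceeds skin in the lesions of either stage; red diamonds from the scanner files lie on the same side of 0 as the table for the members except BC100530 and Stfa1 in tumor versus tumor skin and Cstb between the skin groups.

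The comparison of tumor with papilloma uses lesion arrays only and asks whether stefin A differed between carcinoma and its precursor. Stfa3 was 0.99 higher (SE 0.16) in tumor than in papilloma, with a limma adjusted p of 0.0395 over all probes, a 1.99-fold difference that missed the minimum log2 difference of 1 set for a call. With the lesion columns alone, which leaves the skin arrays out of the estimate of the spread, the adjusted p was 0.0496. It ranged from 0.0378 to 0.96 over 23 alternatives and was at most 0.05 in 6 of them. Every omission of a single lesion array or of a papilloma skin array took it above 0.05, among them 0.0604 without papilloma 2, 0.172 without papilloma 1, 0.196 without papilloma 3, 0.179 without tumor 2 and 0.257 without tumor 1, and the 6 scanner settings gave 0.22 to 0.96. The difference itself stayed between 0.72 and 1.09 in all of these but the scaling to the 75th percentile, where it was 0.19.

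The other stefin A genes did not pass the test between tumor and papilloma. The differences were 0.93 (SE 0.22, limma adjusted p of 0.127) for Stfa1, 0.68 (SE 0.22, 0.234) for BC100530, 0.50 (SE 0.24, 0.383) for Stfa2 and 0.30 (SE 0.22, 0.559) for Stfa2l1. Thus 0 of 6 member probes were called, against 0.113% of all probes called higher by limma. At an unadjusted limma p under 0.05 there were 4 of the 6 members (Stfa3, Stfa1, BC100530 and, lower in tumor, Cstb) and 8032 of all 55681 probes. All 5 stefin A differences were above 0 in the table and in the quantile normalized scanner files, but those of Stfa2, Stfa2l1 and BC100530 were -0.52, -0.33 and -0.34 when the scanner files were scaled to the 75th percentile, and that of Stfa1 was 0.00. The median of all probes was 0.288 under that scaling, against -0.015 in the table and -0.122 in the quantile normalized scanner files. Leaving out tumor 1 gave 0.68 for Stfa1, 0.40 for BC100530, 0.24 for Stfa2 and 0.06 for Stfa2l1, and leaving out tumor 2 gave 0.76 for Stfa2 and 0.53 for Stfa2l1. Without both columns papilloma skin 1 and tumor 1 the stefin A differences were those without tumor 1, with 0.94 for Stfa3 (limma adjusted p of 0.294).

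The arrays of 4 of the 5, all but Stfa2l1, did not overlap between tumor and papilloma, against 18.0% of all probes with tumor higher, and in the scanner files 3 of the 5, against 12.3%. In the table the differences within slide 1 were 0.74 to 1.35. Within slide 2 they were 0.74 for Stfa3, 0.47 for Stfa1, 0.21 for BC100530, 0.03 for Stfa2 and -0.12 for Stfa2l1. The scanner files gave 0.66 to 1.08 within slide 1. Within slide 2 they gave 1.11 for Stfa3, 0.64 for Stfa1, 0.44 for BC100530, 0.13 for Stfa2 and 0.10 for Stfa2l1.

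Lesions versus skin, the mean of papilloma and tumor against the mean of both skin groups, weights the skin groups equally, so that the difference between them cancels out of its mean. The arrays by which Stfa3 was found nevertheless enter its mean and its spread, which limits what its p-values say of the stefin A genes. Of the 6 members only Cstb was called. It read 12.84 and 12.41 in papilloma skin, 12.39 and 12.40 in tumor skin, 14.64, 14.38 and 14.85 in papilloma, and 14.02 and 14.23 in tumor. Every lesion array lay above every skin array, with no overlap between 12.84, the highest on skin, and 14.02, the lowest on lesions. The same held for 7.49% of all probes.

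Cstb was thus 1.86 higher (SE 0.14, a 3.63-fold difference) in lesions than in skin, with a limma adjusted p of 0.000182, where limma called 2.29% of all probes higher. In the scanner files it was 2.12 higher within slide 1, 2.06 within slide 2 and 1.82 within slide 3. The table gave 1.71, 1.89 and 2.44 within these slides, and 2.02 without the columns papilloma skin 1 and tumor 1. The difference was positive under all 22 alternatives (1.75 to 2.48). The adjusted p ranged from 0.000156 to 0.537, and the call was lost in 4 of the 6 scanner settings, in each of which limma called no probe of the array.

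None of the stefin A probes was called between skin and lesions. Stfa2 was 0.63 higher (SE 0.18, limma adjusted p of 0.0482), under the minimum log2 difference for a call, and its adjusted p was 0.0403 to 0.863 over the alternatives. The differences were 0.55 (SE 0.16, limma adjusted p of 0.057) for Stfa2l1, 0.37 (SE 0.16, 0.17) for BC100530, 0.32 (SE 0.16, 0.222) for Stfa1 and 0.27 (SE 0.12, 0.171) for Stfa3. Without the columns papilloma skin 1 and tumor 1 these 5 differences were 0.40 for Stfa2, 0.33 for Stfa2l1, 0.13 for BC100530, 0.09 for Stfa1 and 0.18 for Stfa3. Leaving out tumor 1 alone gave 0.23 for BC100530 and 0.20 for Stfa1. At an unadjusted limma p under 0.05 there were 3 of the 6 members (Cstb, Stfa2 and Stfa2l1) and 16631 of all 55681 probes.

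In none of the 5 stefin A probes were all lesion arrays above all skin arrays, which held for 7.49% of all probes in the table and for 3.43% in the scanner files. From papilloma to tumor Cstb differed by -0.50 (SE 0.19, limma adjusted p of 0.286), with every tumor array below every papilloma array in the table, as for 18.2% of all probes, and overlapping arrays in the scanner files.

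**Figure D3:**
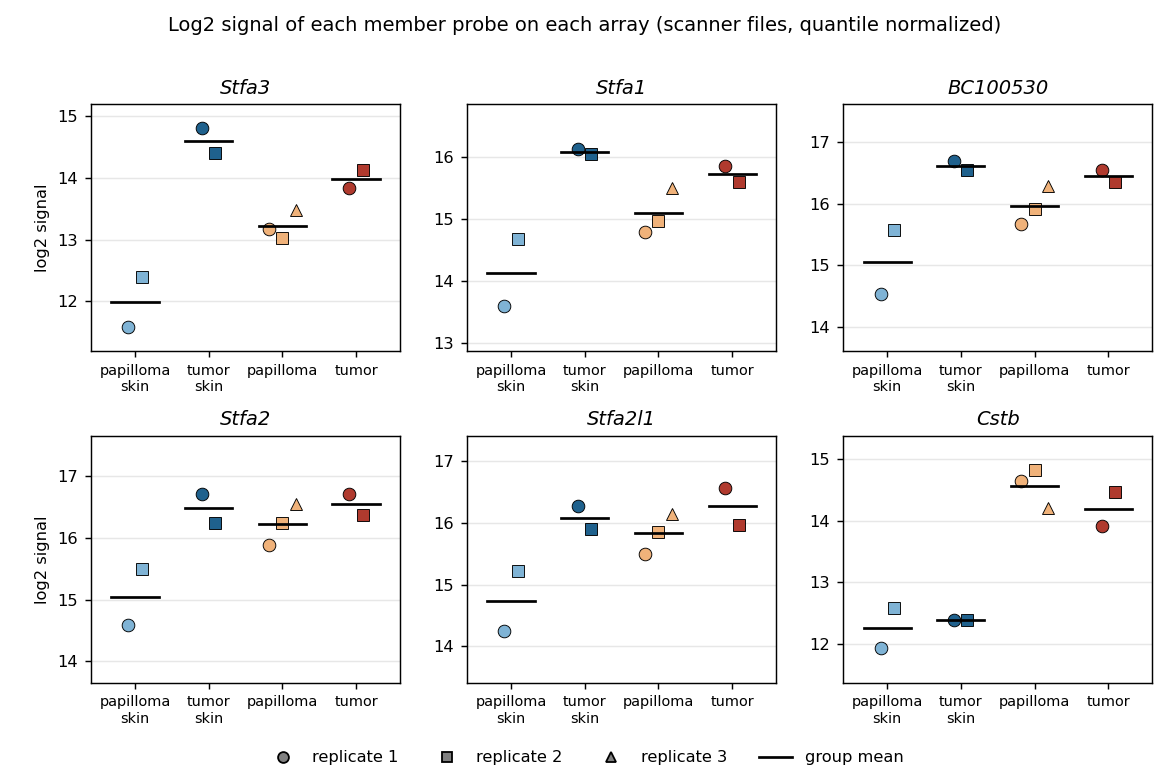
Log2 processed signal of each member probe on each array after quantile normalization of the scanner files, by group, with replicates as symbols and group means as black lines. Papilloma skin 1 lies below papilloma skin 2 for every member (11.93 against 12.58 for Cstb and 13.59 against 14.68 for Stfa1), and the papilloma skin arrays are below all others for the 5 stefin A genes.

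Of 14 other names of the cluster, 6 had a probe. Gm5416, listed as Csta3 in the RefSeq table, was the single one called: it was 1.22 higher in lesions than in skin (SE 0.18, limma adjusted p of 0.00376), with 10.91 and 11.32 in papilloma skin, 11.88 and 11.29 in tumor skin, 12.38 to 12.82 in papilloma and 12.70 and 12.27 in tumor. All its lesion arrays were above all its skin arrays, as for 7.49% of all probes. Gm5483 (Cstdc4) and 2010005H15Rik (Csta2) were 0.81 and 0.72 higher in lesions with limma adjusted p of 0.0117 and 0.0096, below the minimum log2 difference for a call, and both were higher in tumor skin than in papilloma skin, by 1.01 and 1.58. BC117090 (Cstdc6) came closest to Stfa3's course, with 10.68 and 11.34 in papilloma skin, 12.96 and 12.61 in tumor skin, 11.50 to 11.89 in papilloma, and 12.53 and 11.96 in tumor. Like Stfa3 it was lower on both tumor arrays than on both tumor skin arrays (-0.54). Gm4758 (Cstdc3) was well above background on 3 arrays, those with the low spike-in slopes, and Csta (Csta1) on none.

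The members resembled one another to different degrees. After each probe's own mean was subtracted, the root mean square difference over the 9 columns was 0.102 between Stfa2 and Stfa2l1, 0.16 between BC100530 and Stfa1, and 0.503 between Stfa3 and Stfa2l1, the least alike of the stefin A pairs. Cstb differed from the stefin A genes by 0.92 to 1.33. Among 19081 probes of named genes outside the cluster, those most like Stfa3 were Gm5294 (0.324), Saa1 (0.352), 1600014C10Rik (0.384), Prok2 (0.428) and Eif4ebp1 (0.436). Saa1 encodes an acute-phase serum amyloid A protein and Prok2 a secreted protein known as Bv8 in myeloid cells. Prok2 read 11.84 and 12.37 in papilloma skin, 13.44 and 14.03 in tumor skin, 13.52, 13.41 and 12.83 in papilloma, and 14.12 and 14.29 in tumor.

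The probe 1600014C10Rik was among the 5 most alike for each stefin A member, at 0.122 for BC100530 and 0.384 for Stfa3. Next to Stfa2l1 and Stfa2, Gm4285 was the closest (0.107 and 0.129), followed for Stfa2l1 by Dusp6 (0.17), a phosphatase of ERK kinases, 3000002C10Rik, 1600014C10Rik and Tbpl1, and for Stfa2 by 1600014C10Rik, 3000002C10Rik, P2ry12 (0.21) and Gm11123. BC100530 also lay near Gm4285, Tlr1 (0.187), Cds2 and 4933437F05Rik, and Stfa1 near Gm5294, Tlr1 (0.294), Gm2240 and Cds2. Cstb had another set of companions, Gas2l3 (0.143), Elmod3, Tpm2, Dgkz and Elk3 (0.202). Picked by likeness to Cstb, all of them were likewise higher on every lesion array than on every skin array, which follows from that choice. These are descriptions over 9 columns that share slides and scaling.

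To show how alike the copies are outside the probes, stretches next to the transcription starts of the 5 stefin A members are given. They are from RefSeq's promoter table (GRCm38.p6, 250 bases before to 50 after each start), and capitals mark words of at least 10 bases that all 5 windows share. BC100530 is listed there as Cstdc5. Its stretch ends at base 1 after the annotated start, and the other stretches end at -20 to -24.

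Stfa3 (chr16:36455414-36455637, minus strand): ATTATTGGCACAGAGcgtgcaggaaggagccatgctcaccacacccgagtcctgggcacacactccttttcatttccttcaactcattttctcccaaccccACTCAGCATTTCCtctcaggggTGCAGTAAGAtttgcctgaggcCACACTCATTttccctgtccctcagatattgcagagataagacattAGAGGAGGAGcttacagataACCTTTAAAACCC
Stfa1 (chr16:36276906-36277127, plus strand): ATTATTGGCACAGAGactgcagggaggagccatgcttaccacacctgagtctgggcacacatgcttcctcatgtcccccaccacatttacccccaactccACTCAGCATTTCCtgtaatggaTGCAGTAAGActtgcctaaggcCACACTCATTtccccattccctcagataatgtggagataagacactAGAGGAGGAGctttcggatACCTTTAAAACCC
BC100530 (chr16:36367570-36367792, minus strand): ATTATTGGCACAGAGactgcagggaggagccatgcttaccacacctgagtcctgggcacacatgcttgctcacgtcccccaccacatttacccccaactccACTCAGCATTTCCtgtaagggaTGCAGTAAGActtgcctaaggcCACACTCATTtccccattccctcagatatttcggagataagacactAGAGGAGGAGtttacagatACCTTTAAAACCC
Stfa2 (chr16:36408383-36408607, minus strand): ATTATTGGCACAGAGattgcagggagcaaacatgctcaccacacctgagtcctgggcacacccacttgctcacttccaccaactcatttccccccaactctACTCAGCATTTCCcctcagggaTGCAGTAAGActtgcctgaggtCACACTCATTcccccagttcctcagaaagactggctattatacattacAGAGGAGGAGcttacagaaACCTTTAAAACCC
Stfa2l1 (chr16:36156564-36156787, plus strand): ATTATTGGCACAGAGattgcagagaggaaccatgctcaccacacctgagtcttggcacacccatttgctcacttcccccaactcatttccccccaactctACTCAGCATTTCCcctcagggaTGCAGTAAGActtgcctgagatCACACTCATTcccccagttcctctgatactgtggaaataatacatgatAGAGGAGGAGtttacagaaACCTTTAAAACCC

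Over the aligned bases, the 10 pairs of 300-base windows were 80.7% to 96.4% identical, and Stfa3 was 82.1% to 85.1% identical to the others. BC100530 and Stfa1 were the most alike (96.4%), followed by Stfa2l1 and Stfa2 (92.9%). The root mean square differences in expression of these pairs were 0.16 and 0.102, and that of BC100530 and Stfa2, with 82.7% identity, was 0.159. The last shared word printed, ACCTTTAAAACCC, was found on either strand in 9 of 32851 promoters of the table, or 0.0274%. These include the 5 windows from which the word was taken and those of the neighboring copies Gm5483 and Gm5416. The word contains TTTAAAA, an AT-rich sequence like a TATA box, which was found in 8.74% of all promoters. TTTAAAA starts 29 to 33 bases before the annotated start in Stfa1, Stfa2, Stfa3 and Stfa2l1 and 9 before it in BC100530. A C/EBP motif, TTNNGCAA on either strand, matched in Stfa1 and BC100530 and in 10.8% of all promoters, while TATAAA (13.6%) and the PU.1 motif GAGGAAGT (3.2%) matched in none of the 5. A match describes letters and not a bound site, and the absence of one says only that these letters are not in the window.

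Among the cysteine cathepsins, a group that holds proteases stefins bind, several changed between skin and lesions in the deposited table, from which all calls of lists are taken. Of the 11 cysteine cathepsins and legumain, limma called 4 higher in lesions and 2 lower, against 2.29% and 1.33% of all probes, with a median difference of 0.23 against -0.02 over all probes. Ctsl was 1.24 higher (SE 0.21, limma adjusted p of 0.00653), Ctsz 1.17 (SE 0.11, 0.000578), Ctsk, the collagen-degrading cathepsin K, 1.05 (SE 0.25, 0.0248), and Ctsb 1.01 (SE 0.16, 0.00467). Ctsh fell by 1.17 (SE 0.18, limma adjusted p of 0.00445) and Ctsw, the cathepsin of cytotoxic lymphocytes, fell by 2.30 (SE 0.26, 0.00103). Ctsc, which activates the serine proteases of neutrophil granules, gave -1.01 (SE 0.30, limma adjusted p of 0.0568) and Ctss -0.31 (SE 0.14, 0.199). None was called between tumor and papilloma, and their median there was -0.38.

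The other cystatins, which are mostly secreted, gave less. Only 4 of 15 reached a mean log2 level of 6. Cst7, cystatin F of leukocyte lysosomes, fell by 1.72 in lesions (SE 0.17, limma adjusted p of 0.000547) and was the sole call. Cst3, cystatin C, gave -0.67 (SE 0.11, limma adjusted p of 0.00527), below the minimum log2 difference for a call. None was called between tumor and papilloma.

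Granule genes of maturing neutrophils had another course. Of the 10 secondary and tertiary granule genes, 7 were called lower in lesions and 0 higher, where 1.33% of all probes were called lower, with a median of -1.71. Camp, an antimicrobial cathelicidin, fell by 3.86 (SE 0.23, limma adjusted p of 7.09e-05), while Ngp fell by 3.33 (SE 0.21, 7.53e-05) and Ltf, lactoferrin, fell by 2.38 (SE 0.27, 0.00101). The list's mean level was 12.87 and 12.82 in papilloma skin, 13.88 and 13.50 in tumor skin, 11.13 to 11.49 in papilloma, and 11.86 and 11.48 in tumor. It was thus higher in tumor skin than in papilloma skin, as were the stefin A genes, but lower in the lesions of either stage than in any skin array.

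**Figure D4:**
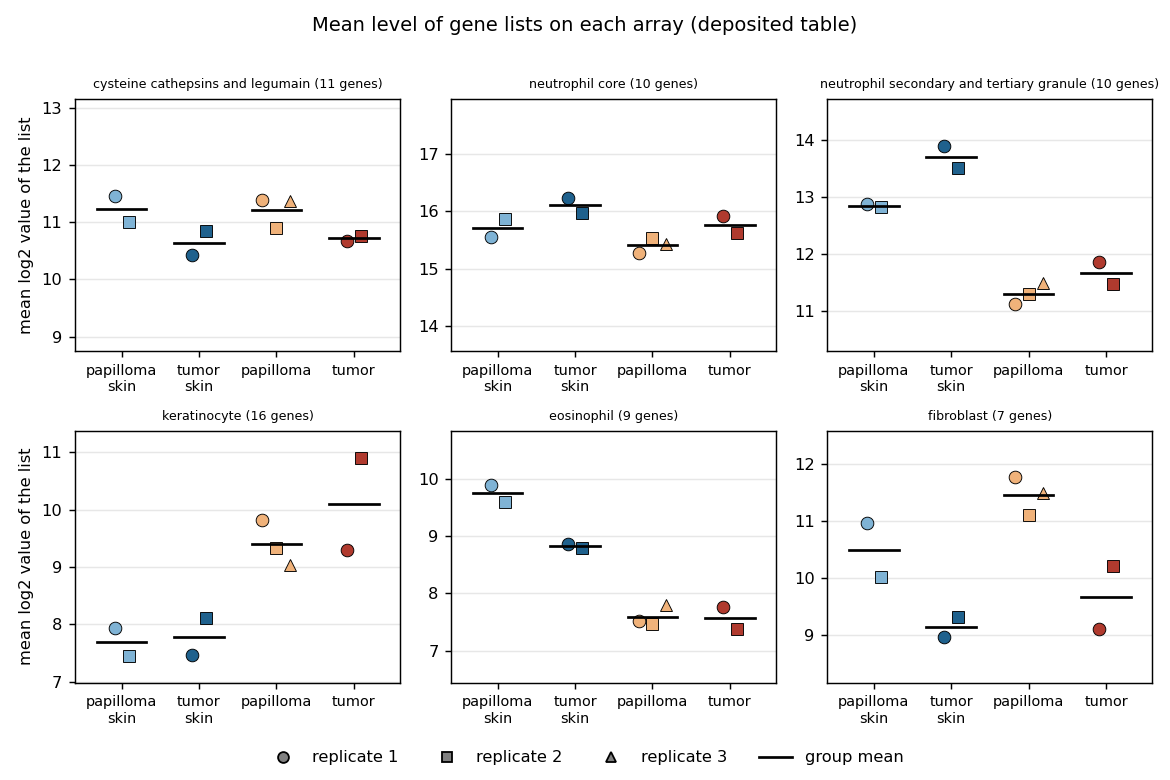
Mean log2 value of 6 gene lists on each array of the deposited table, by group, with replicates as symbols and group means as black lines. The keratinocyte list reads 7.45 to 8.11 on the skin arrays and 9.04 to 10.91 on the lesion arrays, whereas the secondary and tertiary granule list reads 12.82 to 13.88 on skin and 11.13 to 11.86 on lesion arrays.

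Genes of other cells moved between the groups too. Keratinocytes make stefin A and stefin B themselves, and 6 of 16 keratinocyte markers were called higher in lesions and 0 lower, led by Krt6b, 6.05 higher (SE 0.43, limma adjusted p of 0.000148), Sprr1b, 5.07 (SE 0.45, 0.00037) and Sprr1a, 4.37 (SE 0.43, 0.000578). Trp63 went the other way, at -0.43 (SE 0.09, limma adjusted p of 0.0177), under the minimum log2 difference for a call. Krt17 gave 0.36 (SE 0.44, limma adjusted p of 0.631). The list's mean level was 7.94 and 7.45 in papilloma skin, 7.46 and 8.11 in tumor skin, 9.83, 9.34 and 9.04 in papilloma, and 9.29 and 10.91 in tumor, and 9 of 16 markers were well above background on every array. It ran with Cstb in being higher on every lesion array, and its part in Cstb's difference was not tested. Its tumor skin arrays overlapped its papilloma skin arrays, and its part in the stefin A values was not tested.

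Of the 7 fibroblast markers, 3 were called higher in lesions and 0 lower, all 3 of them collagen genes. Among them Col6a1 was 1.94 higher (SE 0.14, limma adjusted p of 0.000142). It was also 2.71 lower in tumor than in papilloma (SE 0.19, 0.00382), where 0.334% of all probes were called lower. Dcn and Lum went the other way between lesions and skin, at -0.98 (SE 0.24, limma adjusted p of 0.0283) and -0.21 (SE 0.49, 0.819). Dcn was under the minimum log2 difference for a call. Of 9 eosinophil markers 6 were called lower, with Ear2 at -3.58 (SE 0.32, limma adjusted p of 0.000367), while the defining marker Epx was well above background on 3 of 9 arrays. Siglec5 of the same list was 0.60 higher in lesions (SE 0.17, limma adjusted p of 0.0466), under the minimum log2 difference for a call. Monocyte and macrophage markers gave 0 higher and 2 lower of 9, T cell markers 0 higher and 1 lower of 7, and mast cell markers no call of 8. Of the 5 primary granule genes 1 was called lower, and of the core neutrophil markers only Ly6g, which fell by 1.58 (SE 0.22, limma adjusted p of 0.00275), while S100a8 and S100a9 differed by -0.19 and -0.03. Retnlg and Trem1 gave -0.91 (SE 0.10, limma adjusted p of 0.000745) and -0.60 (SE 0.17, 0.0478), both under the minimum log2 difference for a call. Mmp9, Il1b and Clec4d went the other way, at 0.09, 0.14 and 0.25. The part of these lists in the members' differences was not tested.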

How the data were processed

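Neutrophils were profiled on 9 single-color Agilent arrays. The authors deposited scanner output of Feature Extraction 10.7.3.1 with background-subtracted fluorescence intensity and flags per spot, and a table of log2 values per probe and array. Quantile normalization and ComBat are named in the methods, but which of them the table holds is not given in the sources used here. Groups came from the labels. The table was analyzed in limma 3.58.1 (R 4.3.3) with a coefficient per group, 5 residual degrees of freedom, which limits precision, and Benjamini-Hochberg adjustment over 55681 probes. Calls needed adjusted p at most 0.05, log2 difference at least 1 in size and mean level at least 6. Scanner signals of 55155 probes without outlier flags were log2 transformed and quantile normalized. The fit was tested on simulated data. Members and lists were chosen with earlier results of these data known. List genes were read from their brightest probe, and genes like a member were the 5 nearest per member by root mean square difference. Alternatives covered scanner processing, slide, replicate block, level filter, variance trend and omission of each array, and the fit without 2 columns was added after seeing the data. Sequences were compared with Biopython 1.88 in Python 3.11.15.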

Additional observations from a re-analysis of the deposited data

Results flagged for a closer look

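The lesion effect of Stfa3 ran in opposite directions at the stages. Both tumor arrays (14.43 and 14.31) lay below both tumor skin arrays (14.82 and 14.59), whereas all 3 papilloma arrays lay above both papilloma skin arrays, by -0.33 and 0.86 on average. Of all probes, 26.4% and 19.8% had arrays apart in these directions. The neighboring gene BC117090 gave -0.54 and 0.71, a stage difference of -1.25. In the scanner files BC117090 gave -0.49 without overlap, but 0.61 with overlapping arrays of papilloma and papilloma skin. The stage difference of Stfa3, -1.19, was not tested and contains the skin difference by which the gene was chosen.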

How the results depend on the processing

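The count of called members in lesions versus skin, 1 (Cstb), was 0 in the scanner files with quantile normalization, with slide as a term, with 75th percentile scaling and with the 6 arrays of a spike-in slope of at least 0.9, and 1 in the other 18 alternatives. The count for tumor versus papilloma, 0, became 1 (Stfa3) when the table was quantile normalized again. Stfa3's difference between the skin groups (2.19) was 2.61, 2.67 and 2.66 in the quantile normalized scanner files without slide correction, with slide as a term and with ComBat, 3.28 with 75th percentile scaling and 2.66 with normexp background correction. Leaving out 1 array at a time gave 2.07 to 2.30, and counts of 1 to 1 and 0 to 0. Of 270 single-probe values of tested comparisons, 261 kept direction and side of the threshold, counting a value of 0.00 as kept. Exceptions in direction were Stfa1 in lesions versus skin (-0.02, 6 arrays) and, with 75th percentile scaling, Stfa2 (-0.52), Stfa2l1 (-0.33) and BC100530 (-0.34) in tumor versus papilloma, where Stfa1 was at 0.00 with that scaling. The causes were not tested.

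Deviations of same-numbered arrays of a lesion and its own skin correlated from 0.162 to 0.534. Those of all other same-numbered arrays correlated from -0.959 to -0.139. Replicate 1 of every group was also on slide 1, and in groups of 2 arrays the deviations mirror each other. These correlations therefore cannot tell whether the numbers pair the arrays, and the main fit used no pairing. The replicate block gave 1 called member in lesions versus skin, 0 in tumor versus papilloma and 2.19 for Stfa3 between the skin groups, while calls over all probes in tumor versus papilloma went from 63 higher and 186 lower to 1 and 0.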
